A study of Mus musculus with 18 samples.

Results

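The kidney genes described here are 8 genes through which aldosterone sets sodium uptake in the distal nephron. They were chosen by name from the 32675 genes of the deposited table, and all 8 were found in it and passed the filter on low counts. They are Nr3c2, Hsd11b2, Sgk1, Nedd4l, the subunit genes Scnn1a, Scnn1b and Scnn1g, and Atp1b1. Bulk RNA sequencing was performed on right kidneys of 18 wild-type male C57BL/6 mice, 6 in each of 3 groups, with 6 weeks given as their age. Ctrl mice were handled daily and not defeated. Mice of the PBS and FLX groups went through chronic social defeat stress (CSDS), 10 min a day for 14 days, with a daily intraperitoneal injection of phosphate-buffered saline (PBS) or of fluoxetine (FLX), a selective serotonin reuptake inhibitor, at 10 mg per kg. No group received fluoxetine without stress, and Ctrl mice were not injected as far as the sources state, so that CSDS and injection cannot be told apart in PBS versus Ctrl.

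Aldosterone enters principal cells of the connecting tubule and collecting duct and binds the mineralocorticoid receptor, encoded by Nr3c2. Corticosterone binds the same receptor, and the enzyme encoded by Hsd11b2 converts it to an inactive form in these cells. The receptor raises transcription of Sgk1, a kinase that phosphorylates the ubiquitin ligase encoded by Nedd4l and so keeps it from removing the epithelial sodium channel (ENaC) from the apical membrane. ENaC is built from the products of Scnn1a, Scnn1b and Scnn1g, and the sodium that enters through it leaves the cell by the basolateral sodium pump, whose beta subunit is encoded by Atp1b1. Sgk1 also responds to glucocorticoids through the glucocorticoid receptor, and is expressed in many cell types.

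The stretches of the ENaC genes that encode the site bound by the Nedd4l protein are shown first, since they join the channel to its regulator. Each is a run of 24 bases of GRCm38, plus strand, read 5′ to 3′, and the capitals mark the codons for proline, proline, any residue and tyrosine. They lie in the last coding exon of each gene, at chr6:125343990-125344013 in exon 12 of Scnn1a, at chr7:121917979-121918002 in exon 13 of Scnn1b and at chr7:121767463-121767486 in exon 13 of Scnn1g.
Scnn1a: gcccctCCACCTGCCTATgctacc
Scnn1b: actccaCCCCCCAACTATgactcc
Scnn1g: acaccaCCCCCCAGATACaatacc
The motif was followed by 26 codons in Scnn1a, 20 in Scnn1b and 22 in Scnn1g, so that it sits near the C terminus of every subunit.

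The window of 300 bases around a start site of Sgk1 is shown because Sgk1 changed most among the 8 genes and because its sequence can be set against the letters bound by corticosteroid receptors. RefSeq windows (GRCm38.p6, 250 bases before to 50 after a start site) were matched for 5 of the 8 genes, with 6 start sites for Sgk1 and 1 each for Nr3c2, Scnn1b, Scnn1g and Atp1b1. The window shown is the fifth of Sgk1, picked from its 6 because it alone holds the receptor palindrome, chr10:21993640-21993939 on the plus strand.
Sgk1: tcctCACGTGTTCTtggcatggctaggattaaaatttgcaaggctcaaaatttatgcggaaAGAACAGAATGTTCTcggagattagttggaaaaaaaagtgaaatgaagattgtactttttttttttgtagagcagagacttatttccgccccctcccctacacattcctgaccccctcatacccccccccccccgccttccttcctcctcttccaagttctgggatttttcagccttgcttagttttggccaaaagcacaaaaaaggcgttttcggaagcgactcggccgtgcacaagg
Capitals mark matches, on either strand, to the corticosteroid receptor palindrome (AGAACA, then 3 bases of any kind, then TGTTCT), to its single arm AGAACA and to the E-box CACGTG. The palindrome, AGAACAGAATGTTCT, lies at chr10:21993701-21993715, 189 bases before the start site, and holds an arm on each strand. A further arm overlaps the E-box at the beginning of the window. Of the 13 annotated transcripts of Sgk1, 5 span the palindrome, none has it in an exon and 1 starts within the window, so that it is intronic in the longer transcripts. The palindrome was found in 3 of the 32851 windows of all genes (0.00913%), whereas the single arm was in 19% and the E-box in 7.15% of them. The cAMP response element TGACGTCA was in 1.79% and TATAAA in 13.6% of all windows. Among the other 5 windows of Sgk1, the first held an arm, the fourth an arm and TATAAA, and the sixth TATAAA. None of these letters was found in the windows of Nr3c2, Scnn1b, Scnn1g and Atp1b1. None of the 19 windows of 12 other genes listed as induced by corticosteroids held the palindrome, and 1 of them held an arm. A match describes letters only, and receptor binding was not measured.

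Levels are given as deposited FPKM, which is scaled to gene length and library total. Library totals ran from 73000203 to 78650116 counts in Ctrl mice, from 72149987 to 78711121 in PBS mice and from 48928823 to 79061296 in FLX mice, and FLX replicates 3 to 6 had at most 52073640. PBS replicate 6 stood apart from the other PBS mice, with 22.1 FPKM of S100a8 against 1.82 to 7.65 and 49.2 FPKM of the tubule injury gene Lcn2 against 0.985 to 4.42. The study left out a PBS mouse with excess inflammatory factors without naming it, and means here are over the other 5 PBS mice, with replicate 6 and the fitted difference over all 6 given beside the values of the 8 genes. Groups were compared with edgeR's quasi-likelihood test over all genes, and a gene was called at an adjusted p under 0.05. In PBS versus Ctrl, 3.81% of the 20251 genes tested were called, against 0.726% in FLX versus PBS and 3.67% in FLX versus Ctrl. With all 6 PBS mice these shares were 4.28%, 0.557% and 1.77% of 19946 genes. Whole kidney was sequenced, so fewer cells of a type and less RNA per cell cannot be told apart. The 3 comparisons share mice, and their values are set side by side only.

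In PBS versus Ctrl, 2 of the 8 genes were called, Sgk1 and Scnn1g, both higher in the PBS group. All 8 fitted differences were positive, from 0.07 for Nr3c2 to 1.61 for Sgk1 on the log2 scale, while the median over all genes tested was -0.01. With all 6 PBS mice 4 were called, Sgk1, Scnn1a, Scnn1b and Scnn1g. In FLX versus PBS none was called, and in FLX versus Ctrl the called genes were again Sgk1 and Scnn1g, both higher in the FLX group. With all 6 PBS mice in the fit, none was called in FLX versus PBS and Sgk1 alone in FLX versus Ctrl. FPKM values did not overlap between PBS and Ctrl mice for Sgk1, Scnn1b and Scnn1g (3.52% of all genes tested did not overlap), nor between FLX and Ctrl mice for Sgk1 and Scnn1g (3.40% of all genes). They overlapped between FLX and PBS mice for all 8 (2.92% of all genes did not).

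**Figure D1:**
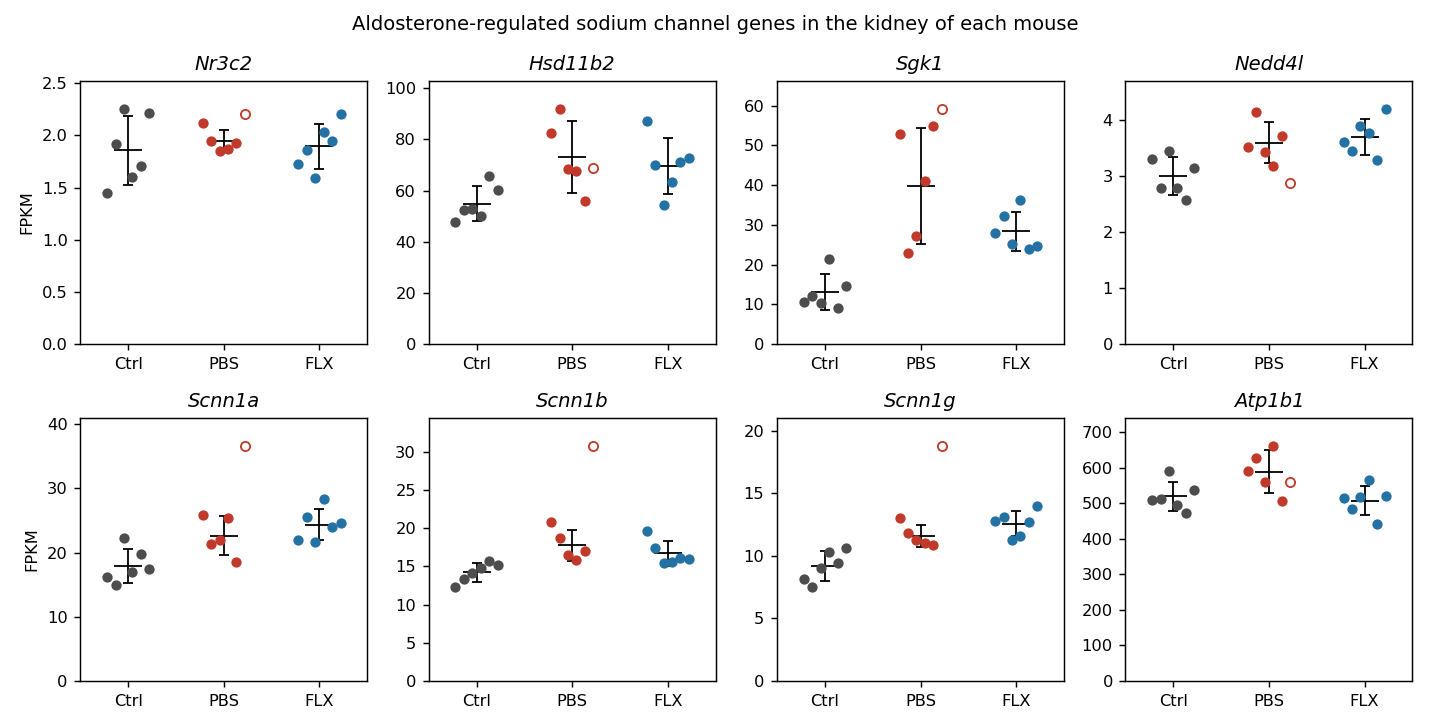
FPKM (vertical axes, linear and starting at 0) of the 8 genes in each mouse of the Ctrl, PBS and FLX groups; bars are mean and SD over 6, 5 and 6 mice, and the open circle is PBS replicate 6, which is not in the mean. Sgk1 separates every stressed mouse (at least 22.9) from every Ctrl mouse (at most 21.4), and PBS replicate 6 lies far above the other mice for Scnn1b at 30.8 and Scnn1g at 18.8.

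The receptor gene Nr3c2 was the lowest of the 8. It ranged from 1.45 to 2.25 FPKM in the Ctrl group (median 1.82) and from 1.59 to 2.20 in the FLX group (median 1.9), PBS replicates 1 to 5 had 2.12, 1.95, 1.85, 1.87 and 1.93, and PBS replicate 6 had 2.20. The groups overlapped throughout. Fitted log2 differences were 0.07 in PBS versus Ctrl (95% interval -0.15 to 0.30, adjusted p = 0.783; 0.10 with all 6 PBS mice), -0.13 in FLX versus PBS and -0.06 in FLX versus Ctrl. The sign of the last difference depended on the scaling, at 0.02 with total counts only.

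Hsd11b2 (ENSMUSG00000031891, chr8:105518755-105523988), whose enzyme shields the mineralocorticoid receptor from corticosterone, had higher mean levels in both stressed groups without passing the test. Its Ctrl values ran from 47.6 to 65.9 FPKM (median 52.8). PBS replicates 1 to 5 had 82.4, 91.8, 68.4, 67.6 and 55.9 FPKM, PBS replicate 6 had 69.0, and FLX mice had 54.2 to 87.1 (median 70.5). In both stressed groups 4 mice, among 5 PBS and 6 FLX mice, lay above the highest Ctrl mouse. Ctrl mice averaged 54.9 ± 6.88 FPKM (SD, n = 6), PBS mice 73.2 ± 14 (SD, n = 5) and FLX mice 69.8 ± 10.9 (SD, n = 6). Fitted differences (log2) of Hsd11b2 were 0.42 in PBS versus Ctrl (adjusted p = 0.101 from edgeR, or 0.40 and 0.0943 with all 6 PBS mice), 0.26 in FLX versus Ctrl (0.280) and -0.16 in FLX versus PBS. The exact permutation test of this gene alone, without adjustment over genes, gave p = 0.0195 for PBS versus Ctrl and 0.0216 for FLX versus Ctrl. That test used FPKM, in which FLX and Ctrl mice differed by 0.34 in mean log2(FPKM + 0.1).

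The gene of the opposing enzyme, Hsd11b1, which regenerates corticosterone, was lower in PBS mice, whereas the higher mean of Hsd11b2 was not called. Ctrl mice averaged 25.8 ± 2.23 FPKM (SD, n = 6), PBS mice 14 ± 3.20 (SD, n = 5) and FLX mice 22.6 ± 3.94 (SD, n = 6). In PBS versus Ctrl it fell by 0.88 on the log2 scale (adjusted p = 0.00130, standard error 0.14 from edgeR) and was higher by 0.60 in FLX versus PBS (adjusted p = 0.0449). Over all 6 PBS mice the first difference was -0.80 (adjusted p = 0.00350), and the second was 0.53 and was no longer called (adjusted p = 0.0874). Among the other receptor and enzyme genes listed, 7 without the 8 genes described here, Fkbp5, a chaperone of the glucocorticoid receptor, rose in PBS versus Ctrl (log2 fold change 1.23, adjusted p = 0.00237). The glucocorticoid receptor gene Nr3c1 averaged 8.14 ± 1.5 FPKM in Ctrl mice (SD, n = 6), 7.12 ± 0.579 in PBS mice (SD, n = 5) and 8.20 ± 0.856 in FLX mice (SD, n = 6), and was not called. Its level was above that of Nr3c2 in every group, with a ratio of FPKM of 3.41 to 5.01 in Ctrl, 3.10 to 4.12 in PBS without replicate 6, which had 2.24, and 4.09 to 4.58 in FLX. Hsp90ab1, the abundant chaperone of these receptors, had 297 FPKM in Ctrl, 358 in PBS and 398 in FLX and was not called, nor was Fkbp4, at 106, 110 and 125 FPKM.

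Sgk1 (ENSMUSG00000019970, chr10:21882184-21999893) changed most. Ctrl mice had 9.17 to 21.4 FPKM (median 11.4), and PBS replicates 1 to 5 had 52.9, 22.9, 27.3, 41.0 and 54.8. PBS replicate 6 had 59.1, and FLX mice had 24.0 to 36.2 (median 26.6). Every stressed mouse was above every Ctrl mouse, and PBS mice were spread from a little above the highest Ctrl mouse to far above it. The FLX values lay inside the PBS range.

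Sgk1 averaged 13.1 ± 4.51 FPKM in Ctrl mice (SD, n = 6), 39.8 ± 14.5 in PBS mice (SD, n = 5) and 28.4 ± 4.89 in FLX mice (SD, n = 6). The rise in PBS versus Ctrl was 1.61 on the log2 scale (standard error 0.23, 95% interval 1.13 to 2.10, adjusted p = 0.000694), or 3.06-fold, and ranked 45 by p among 20251 genes. With all 6 PBS mice it was 1.71 (adjusted p = 0.000600). In FLX versus Ctrl the difference was 1.03 (standard error 0.22, adjusted p = 0.0173), and without Ctrl replicate 5 it was 0.96 (0.0505). Between FLX and PBS mice it was -0.58 (interval -1.06 to -0.10, adjusted p = 0.314), and -0.68 with all 6 PBS mice (adjusted p = 0.188). Thus the PBS group was not distinguished from the FLX group after adjustment, and the exact permutation test of this gene gave p = 0.132.

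Nedd4l (ENSMUSG00000024589, chr18:64887705-65215069) showed smaller differences. Ctrl mice had 2.57 to 3.44 FPKM (median 2.96), PBS replicates 1 to 5 had 3.52, 4.14, 3.42, 3.17 and 3.72, PBS replicate 6 had 2.88, and FLX mice had 3.29 to 4.19 (median 3.68). The groups overlapped. Fitted differences (log2) of Nedd4l were 0.27 in PBS versus Ctrl (adjusted p = 0.0825) and 0.22 in FLX versus Ctrl (0.130), and with all 6 PBS mice it was 0.21 (0.202) against Ctrl. Exact permutation tests of this gene, on FPKM and without adjustment over genes, gave p = 0.0281 for PBS versus Ctrl and 0.00649 for FLX versus Ctrl. The latter difference was 0.30 in mean log2(FPKM + 0.1), and 5 of 6 FLX mice were above every Ctrl mouse in FPKM. The ratio of Sgk1 to Nedd4l, whose products oppose each other at the channel, averaged 4.43 ± 1.73 in Ctrl mice (SD, n = 6), 11.2 ± 4.26 in PBS mice (SD, n = 5) and 7.73 ± 1.5 in FLX mice (SD, n = 6), and overlapped between groups.

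The channel subunits came next. Scnn1a (ENSMUSG00000030340, chr6:125320659-125344933), the alpha subunit, had 14.9 to 22.3 FPKM in Ctrl (median 17.2), 25.8, 21.3, 21.9, 25.4 and 18.5 in PBS replicates 1 to 5, and 21.6 to 28.3 in FLX (median 24.3). Both stressed groups overlapped with Ctrl. Fitted log2 differences were 0.35 in PBS versus Ctrl (adjusted p = 0.0825) and 0.35 in FLX versus Ctrl (0.0635), and neither was called. PBS replicate 6 had 36.6 FPKM, and with it the first difference was 0.47 (0.0454). Without this mouse it was also past the threshold with DESeq2 (0.0327), without Ctrl replicate 3 (0.0284) and without PBS replicate 5 (0.0312). For FLX versus Ctrl, 8 of 31 alternatives were past the threshold (lowest adjusted p = 0.0130). The exact permutation test, on FPKM and without adjustment over genes, gave p = 0.00649, with 4 of 6 FLX mice above every Ctrl mouse. In mean log2(FPKM + 0.1) the difference of FLX from Ctrl mice was 0.44. For PBS versus Ctrl the exact permutation test gave p = 0.0303.

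Scnn1b (ENSMUSG00000030873, chr7:121865038-121918514), the beta subunit, had 12.3 to 15.7 FPKM in Ctrl (median 14.5). PBS replicates 1 to 5 had 20.8, 18.7, 16.5, 15.8 and 17, and FLX mice had 15.5 to 19.7 (median 16.1). Every PBS mouse was above every Ctrl mouse, by as little as the step from 15.7 to 15.8 FPKM. PBS mice differed from Ctrl mice by 0.32 on the log2 scale (adjusted p = 0.0753), while the exact permutation test gave the smallest p it can give, 0.00216. With PBS replicate 6, at 30.8 FPKM, the difference was 0.47 (adjusted p = 0.0473). FLX mice differed from Ctrl mice by 0.14 (adjusted p = 0.406), or 0.34 with FLX replicates 1 and 2 and 0.04 with FLX replicates 3 to 6, and from PBS mice by -0.18 (0.537). In FPKM, 4 of 6 FLX mice were above every Ctrl mouse, a difference of 0.23 in mean log2(FPKM + 0.1) for which the exact permutation test gave p = 0.00649.

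Scnn1g (ENSMUSG00000000216, chr7:121734479-121768475), the gamma subunit, was the channel gene that passed the test in both comparisons with Ctrl. Ctrl mice had 7.51 to 10.6 FPKM (median 9.24), PBS replicates 1 to 5 had 13.0, 11.8, 11.3, 11 and 10.9, and FLX mice had 11.3 to 14 (median 12.7). No PBS or FLX mouse overlapped with Ctrl, and the PBS and FLX mice overlapped with each other. Scnn1g was higher (log2) by 0.35 in PBS versus Ctrl (adjusted p = 0.0458) and by 0.37 in FLX versus Ctrl (adjusted p = 0.0312), each with a standard error of 0.09. Both lay near the threshold. The first was called in 9 and the second in 10 of 17 fits that left out a mouse, and with all 6 PBS mice in the fit the first was 0.48 (adjusted p = 0.0304) and the second 0.37 (adjusted p = 0.115).

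Ratios between the subunits describe the proportions of their transcripts within a mouse. The ratio of Scnn1g to Scnn1b averaged 0.643 ± 0.0528 in Ctrl mice (SD, n = 6), 0.656 ± 0.0322 in PBS mice (SD, n = 5) and 0.758 ± 0.0725 in FLX mice (SD, n = 6), where 5 of the 6 mice were above the highest ratio of the PBS and Ctrl groups. Within the FLX group this ratio was 0.652 in replicate 1 and 0.755 in replicate 2, and averaged 0.785 in replicates 3 to 6, the libraries with fewer counts. The ratio of Scnn1b to Scnn1a was 0.804, 0.796 and 0.694 in the same order, and that of Scnn1g to Scnn1a was 0.517, 0.520 and 0.522. All of these ranges overlapped between groups.

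Atp1b1 (ENSMUSG00000026576, chr1:164437109-164458355, minus strand), the pump's beta subunit, was the most abundant of the 8. Ctrl mice had 472 to 592 FPKM (median 510), PBS replicates 1 to 5 had 591, 628, 560, 662 and 506, PBS replicate 6 had 559, and FLX mice had 443 to 566 (median 515). Fitted log2 differences were 0.19 in PBS versus Ctrl (adjusted p = 0.24, or 0.17 and 0.286 with all 6 PBS mice), -0.31 in FLX versus PBS (adjusted p = 0.112, or -0.29 and 0.139) and -0.12 in FLX versus Ctrl (0.442). DESeq2 called Atp1b1 in FLX versus PBS (adjusted p = 0.0183), and the exact permutation test of this comparison gave p = 0.0303.

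Fxyd2, a regulatory subunit of the pump, had 514 FPKM in Ctrl, 495 in PBS and 439 in FLX and was not called.

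**Figure D2:**
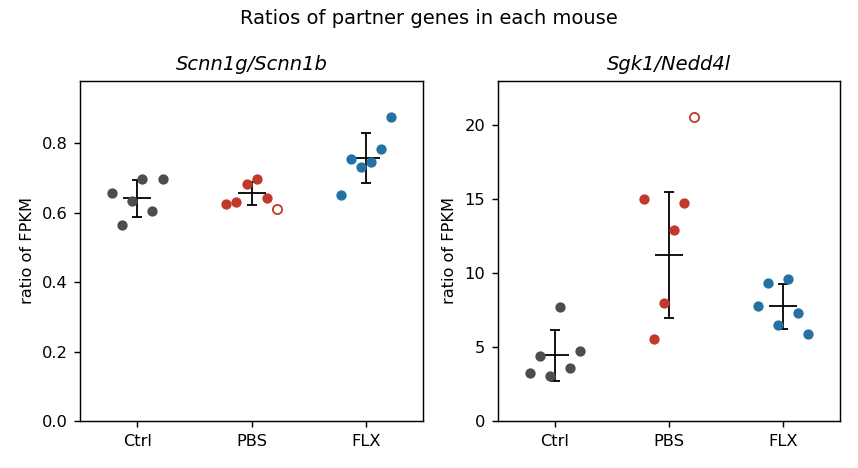
Ratio of FPKM (vertical axes, from 0) of partner genes in each mouse, with mean and SD and PBS replicate 6 as an open circle. The ratio of Scnn1g to Scnn1b is above every Ctrl and PBS mouse in 5 of the 6 FLX mice, and the ratio of Sgk1 to Nedd4l spreads widely in the PBS group.

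**Figure D3:**
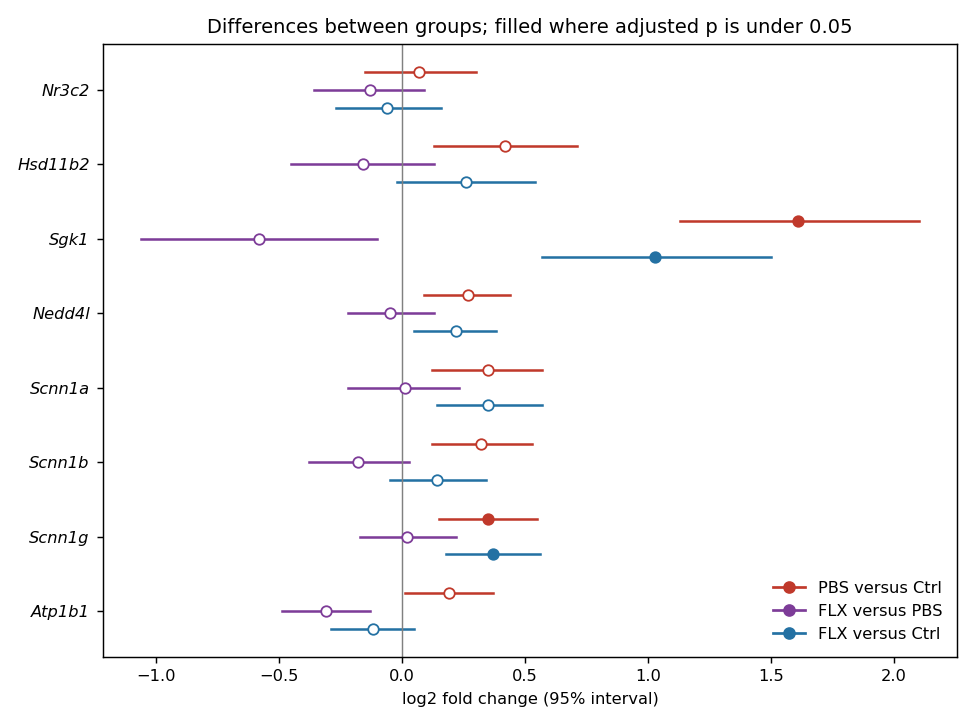
Fitted log2 fold changes (horizontal axis) of the 8 genes in the 3 comparisons, with 95% intervals; points are filled where the adjusted p is under 0.05. Sgk1 shows the largest differences and Sgk1 and Scnn1g are the filled genes, in PBS versus Ctrl and FLX versus Ctrl.

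Genes listed as induced by corticosteroids were examined beside Sgk1. Of 15 such genes without Sgk1, 10 were called higher and none lower in PBS versus Ctrl, against 3.81% of all genes tested called in either direction. Their median log2 fold change was 0.90, and 12 of the 15 differences were positive. The list was chosen with earlier results of these data known, so these counts are a description and not a test. Among the 10 called were Zbtb16, a transcription factor (3.04, adjusted p = 0.000332 from edgeR), Per1, a clock gene (2.06, 0.000134), Fkbp5 (1.23, 0.00237) and Tsc22d3, the glucocorticoid-induced leucine zipper (1.09, 0.00138). The others were Cdkn1a, a cell cycle inhibitor, at 2.21, Ddit4, an mTOR inhibitor, at 2.17, Usp2 at 1.06, Errfi1 at 0.90, Klf9 at 0.63 and Cnksr3 at 0.38. Ndrg2, an abundant gene of the list, was at 29.9 FPKM in Ctrl, 29.3 in PBS and 33.6 in FLX and was not called. With all 6 PBS mice, 10 of 15 were again called.

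In FLX versus PBS, 2 of the 15 genes were called, both lower, against 0.726% of all genes tested called in either direction. Per1 fell by 1.28 on the log2 scale (adjusted p = 0.0171), with means of 12.2 ± 3.79 FPKM in PBS mice (SD, n = 5), 5.40 ± 1.54 in FLX mice (SD, n = 6) and 2.98 ± 0.862 in Ctrl mice (SD, n = 6). Usp2, a deubiquitinase that acts on ENaC and on clock proteins, fell by 0.82 (adjusted p = 0.000808), with means of 25.2 ± 1.94 FPKM in PBS mice (SD, n = 5), 15.2 ± 1.7 in FLX mice (SD, n = 6) and 12.2 ± 0.906 in Ctrl mice (SD, n = 6). The median of the 15 genes was -0.55. In FLX versus Ctrl the median of the 15 was 0.26. There 4 were called higher, Tsc22d3 (1.03), Zbtb16 (2.18), Cdkn1a (1.29) and Ddit4 (1.15), against 3.67% of all genes tested. Of these calls, 2 were lost with all 6 PBS mice in the fit, those of Cdkn1a and Ddit4 (adjusted p = 0.0537 for each). Tsc22d3 had 13.5 FPKM in PBS and 13.8 in FLX, against 6.33 in Ctrl. The sources used here do not state at which time of day kidneys were taken.

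**Figure D4:**
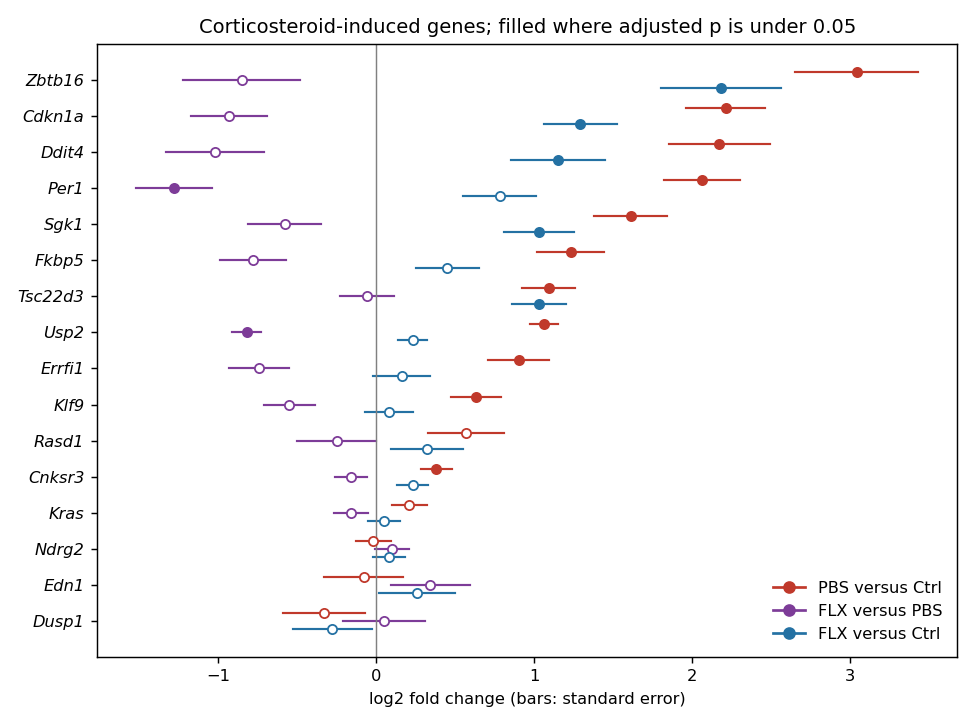
Fitted log2 fold changes (horizontal axis, bars are the standard error) of the 16 listed corticosteroid-induced genes, Sgk1 included, in the 3 comparisons; points are filled where the adjusted p is under 0.05. In PBS versus Ctrl 11 points are filled to the right of 0, and in FLX versus PBS those of Per1 and Usp2 are filled to its left.

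Genes that process or move the channel gave 4 calls of 16 in PBS versus Ctrl, all higher, against 3.81% of all genes tested. The 4 called were Usp2, Tsc22d3, Cnksr3, a scaffold of the kinase complex at the channel, and Ywhae (log2 fold change 0.24, adjusted p = 0.0471), a 14-3-3 protein that binds phosphorylated Nedd4l protein. Usp2, Tsc22d3 and Cnksr3 are also in the corticosteroid list. Usp10, another deubiquitinase, was higher in FLX versus Ctrl (0.37, adjusted p = 0.0346, or 0.0646 with all 6 PBS mice in the fit). Prss8, a protease that activates ENaC, had 167 FPKM in Ctrl, 157 in PBS and 141 in FLX and was not called. Another list held 15 genes of kinases acting on Sgk1 or the channel and of partners of such kinases. Of these, Mlst8, a subunit of mTOR complexes, was called, in FLX versus Ctrl (0.36, adjusted p = 0.0413, or 0.0537 with all 6 PBS mice). Sgk2 and Wnk4, the most abundant, were not called. None of the 9 listed genes for potassium and chloride transport was called in any comparison, among them Slc12a1, a gene of the thick ascending limb. The acid-sensing relatives of ENaC were near the floor, with Asic1 at 0.698 FPKM in Ctrl and Asic2 at 0.124. Of 5 listed, 3 passed the filter on low counts and were tested, and none of these was called.

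Markers of the cells that carry ENaC were compared with the channel genes. None of the 6 principal cell markers was called in PBS versus Ctrl, and their median log2 fold change was 0.00. Their summed level was 112 to 451 FPKM in Ctrl, 124 to 254 in PBS without replicate 6, 444 in that mouse and 148 to 244 in FLX, and no defining marker was at 0 in any mouse. Of the 4 distal convoluted tubule markers, Calb1 (0.95, adjusted p = 0.00354) and the magnesium channel gene Trpm6 (0.77, adjusted p = 0.00551) were higher in PBS versus Ctrl. The others were not called. Slc12a3 averaged 59.1 FPKM in Ctrl, 68.4 in PBS and 70 in FLX, and Pvalb went the other way, at 27.3, 22.6 and 21.3. The summed level of the 4 was 127 to 175 FPKM in Ctrl, 157 to 281 in PBS and 142 to 233 in FLX. Calb1 alone averaged 64.3, 123 and 93 FPKM in the same order. Trpm6 was also higher in FLX versus Ctrl (0.65, adjusted p = 0.0168). None of the markers of intercalated cells, the thick ascending limb, the proximal tubule, podocytes, endothelium and macrophages was called in any comparison with 5 PBS mice. All 4 podocyte markers had positive differences in PBS versus Ctrl (median 0.31) and in FLX versus Ctrl (median 0.27), with sums of 39 to 52.8 FPKM in Ctrl, 50.8 to 61 in PBS without replicate 6 and 45.7 to 74.9 in FLX. PBS replicate 6 had a podocyte sum of 88 FPKM, and a proximal tubule sum of 705 against 1081 to 1309 in the other PBS mice. With that mouse the podocyte marker Synpo was called in PBS versus Ctrl (0.51, adjusted p = 0.0460).

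Neutrophil markers moved with the PBS group. Their sum was 1.29 to 3.18 FPKM in Ctrl, 6.57 to 25.5 in PBS without replicate 6, 59.2 in that mouse and 0.219 to 4.77 in FLX. Of 4 tested, S100a8 and S100a9 were higher in PBS versus Ctrl and S100a8 was lower in FLX versus PBS, while Ly6g was at 0 in 14 of 18 mice. Blood genes ranged from 38.6 to 771 FPKM in Ctrl, 93.4 to 2125 in PBS and 32.1 to 294 in FLX. All 4 fat markers had positive differences in both comparisons with Ctrl, with medians of 2.62 in PBS and 2.22 in FLX on the log2 scale, and none was called. Their sums were 0.443 to 56.1 FPKM in Ctrl (median 4.52), 4.86 to 515 in PBS without replicate 6 (median 34.9), 1.75 in that mouse and 4.41 to 318 in FLX (median 17.9). Adrenal cortex markers summed to 0.439 to 2.45 FPKM, and Cyp11b2, the aldosterone synthase gene, was at 0 in 17 of 18 mice. The part of these cells in the differences of the 8 genes was not tested.

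Across the 17 mice, after group means had been removed, the genes most like each member in log2(FPKM + 0.1) were picked from 12098 genes tested with at least 1 FPKM. Scnn1b was most like Rhcg, an ammonia transporter gene of the collecting duct (Pearson's r = 0.86), and then Hsd11b2 (0.75), and Hsd11b2 was also most like Rhcg (0.82). Sgk1 was most like Aldh1a1 (0.81), Cldn4 (0.81) and Gm10080 (0.79). Scnn1a was most like Dennd1a (0.90), Scnn1g most like Vac14 (0.77), Nedd4l most like Top3b (0.88), Atp1b1 most like Gm24515 (0.87) and Nr3c2 most like Ttpal (0.87). These partners were picked as the highest of 12098 values for each gene. How high such values run by chance was not tested, so they do not show shared regulation. Among the 8 genes, Scnn1b and Scnn1g varied together (0.67), as did Hsd11b2 and Scnn1g (0.53), while Hsd11b2 and Sgk1 had r = -0.35. These values are across mice that share library depth and tissue composition, and describe these 17 libraries.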

How the data were processed

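RNA with poly(A) was sequenced in read pairs from 18 kidneys. The authors cleaned reads, aligned them to GRCm38 and assembled transcripts with StringTie. The submitters' notes name cutadapt 1.9, HISAT2 2.0.4, UMI-tools and StringTie 1.3.4d. For every gene and mouse, FPKM and estimated counts were deposited by the authors. The counting tool and its use of strand were not given in the sources used here. All of these counts were whole numbers.

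The counts were compared with edgeR 4.0.16 (quasi-likelihood test, TMM scaling, filterByExpr, R 4.3.3) in 1 model over 17 mice and 3 groups, with Benjamini-Hochberg adjustment over 20251 genes. Fitted differences therefore differ from ratios of FPKM, which is scaled to library totals. TMM factors were 1.002 to 1.099 in FLX mice and 0.947 to 1.030 in Ctrl mice, so FPKM places FLX mice higher against Ctrl mice. In FLX versus Ctrl, Scnn1b differed by 0.14 in the fit and 0.23 in log2(FPKM + 0.1), and Atp1b1 by -0.12 and -0.03. Permutation tests and counts of mice above every Ctrl mouse carry this shift. Exact two-sided permutation tests used mean log2(FPKM + 0.1). Alternatives were DESeq2 1.42.0, limma 3.58.1, other scalings, no filter, other sets of mice and leaving out each mouse. The edgeR step was tested on simulated counts. Separate mice are the replicates. Motifs were searched on both strands. The 8 genes and the gene lists were chosen with earlier results of these data known. Named genes were the 8, every listed gene called in a comparison, the 2 most abundant of each pathway list, and genes most alike in pattern. Results of some listed genes are not reported here.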

Additional observations from a re-analysis of the deposited data

Results flagged for a closer look

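In 45 groups of 6 values tested for a mouse far from the others of its group, 4 values stood out. Chance gives such a value in about 1 in 20 groups, so some of the 45 are due by chance alone. The groups are also not independent, since the ratios reuse values of the 8 genes. PBS replicate 6 had 30.8 FPKM of Scnn1b, against 15.8 to 20.8 in the other PBS mice. It also had 18.8 FPKM of Scnn1g, against 10.9 to 13.0. FLX replicate 1 had a ratio of Hsd11b2 to Nr3c2 of 50.2, against 31.3 to 37.6 in the other FLX mice. Ctrl replicate 4, the Ctrl mouse with the highest Sgk1, had a ratio of Sgk1 to Nedd4l of 7.70, against 3.01 to 4.69.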

How the results depend on the processing

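Sgk1 in PBS versus Ctrl was called under every alternative tried. The count of the 8 genes called in PBS versus Ctrl, 2 as reported, was 1 with upper-quartile scaling, total counts only, no filter, limma with pseudocounts of 0.1 and 0.01, only the groups compared and the replicate block, 4 with all 6 PBS mice, 6 with DESeq2, and 1 to 4 without 1 mouse. In FLX versus PBS it was 0, but 1 with DESeq2 and 0 to 1 without 1 mouse (Atp1b1 without PBS replicate 5). In FLX versus Ctrl, 2 as reported, it was 1 with no filter, all 6 PBS mice and the replicate block with 5 or 6 PBS mice, 4 with limma and a pseudocount of 1, 0 with FLX replicates 1 and 2 or 3 to 6 only, and 0 to 4 without 1 mouse (0 without Ctrl replicate 5, 4 without Ctrl replicate 3). Sgk1 in FLX versus Ctrl was 1.17 (adjusted p = 0.221) with FLX replicates 1 and 2 and 0.96 (0.0789) with FLX replicates 3 to 6. Scnn1g lost its call in PBS versus Ctrl when any of 8 mice was left out (Ctrl 1, 2, 5, PBS 1, 2, 4 and FLX 1, 2), and in FLX versus Ctrl when any of 7 was (Ctrl 1, 2, 5 and FLX 1, 2, 5, 6).

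Of all genes, 772 were called in PBS versus Ctrl, against 1413 with DESeq2, 496 with only the groups compared, 419 with the replicate block and 388 to 1662 without 1 mouse. In FLX versus PBS 147 were called, against 229 with total counts only, 88 with no filter, 498 with DESeq2, 329 with limma and a pseudocount of 1, 95 with only the groups compared, 67 with the replicate block, 0 and 38 with FLX replicates 1 and 2 or 3 to 6, 48 with the replicate block and all 6 PBS mice, and 47 to 250 without 1 mouse. In FLX versus Ctrl 744 were called, against 378 with no filter, 1615 with DESeq2, 1436 with limma and a pseudocount of 1, 354 with all 6 PBS mice, 258 with the replicate block, 4 and 179 with FLX replicates 1 and 2 or 3 to 6, 99 with the replicate block and all 6 PBS mice, and 271 to 3099 without 1 mouse. The block with all 6 PBS mice was chosen after seeing the data. The 433 higher and 339 lower genes of PBS versus Ctrl became 314 and 449 with upper-quartile scaling, the 422 and 322 of FLX versus Ctrl became 340 and 412, and 889 and 209 with total counts only, and the 62 and 85 of FLX versus PBS became 167 and 62. Causes were not tested.

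Signs turned only for differences that were not called. In FLX versus PBS, Nedd4l (-0.05) was 0.04 with total counts only, 0.04, 0.03 and 0.04 with limma at pseudocounts of 0.1, 1 and 0.01, and 0.01 with all 6 PBS mice, with and without the block. Scnn1a (0.01) was 0.00 with no filter and with FLX replicates 3 to 6, -0.12 with all 6 PBS mice and -0.10 with the block added. Scnn1g (0.02) was -0.10 with all 6 PBS mice, -0.08 with the block added, -0.01 with the replicate block and -0.02 with FLX replicates 3 to 6. With FLX replicates 1 and 2, Hsd11b2 was 0.05 and Scnn1b 0.01. In FLX versus Ctrl, Nr3c2 (-0.06) was 0.02 with total counts only and 0.04, 0.02 and 0.04 with limma at the same pseudocounts. Without 1 mouse, Scnn1a ranged from -0.07 to 0.07, Scnn1g from -0.01 to 0.08 and Nedd4l from -0.08 to 0.01 in FLX versus PBS. Mice share replicate numbers across groups, but of 16 pairs with the same number 2 had deviations that correlated over 0.1 (range -0.20 to 0.23), and 4 of 17 mice correlated best with their own number, so that the block pairs mice by number only. Depth was lower in FLX replicates 3 to 6, which limits genes with few counts.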
